A study of Mus musculus with 4 samples.

Results

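Cycling tumour cells were the keratin-expressing cells of mouse 4T1 tumours that carried transcripts of the proliferation genes Top2a and Mki67. The members were chosen by thresholds on single-cell counts of UMIs (unique molecular identifiers, each marking a captured transcript). A member had at least 300 genes, at least 5000 UMIs and at most 15% mitochondrial UMIs. Krt8 plus Krt18, the simple-epithelial keratins, made up at least 0.2% of its UMIs, and Top2a plus Mki67 reached at least 5 UMIs. It held no UMI of Ptprc, the gene of the leucocyte antigen CD45, with the macrophage genes C1qa, C1qb and C1qc under 0.3% and the collagen genes Col1a1, Col1a2 and Col3a1 under 0.5% of UMIs. These gates kept 446 of 33064 barcodes. The same gates with fewer than 5 UMIs of Top2a plus Mki67 gave 2632 other tumour cells, so that 14.5% of 3078 tumour cells were members (exact Clopper-Pearson 95% interval 13.3 to 15.8%).

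The 4T1 line is a mammary carcinoma line of the BALB/c mouse. Each host was a female BALB/c mouse aged 6 to 8 weeks and received 1000000 4T1 cells in the right flank. An intravenous injection followed on day 7. A 5 min exposure to near-infrared (NIR) light (980 nm, 1.0 W/cm2) was given on each of days 8, 9 and 10. Tumours were taken on day 13. The injection was PBS in 2 samples and TIOs in 1 sample of the group TIOs+NIR3, and both groups were irradiated. TIOs are dead macrophages loaded with light-converting nanoparticles and with RSL3, an inhibitor of the lipid peroxidase GPX4. A 4th sample was titled PBS while its protocol named TIOs, and it was left without a group. The methods state a sort for CD45-positive cells before droplet sequencing of the 3′ ends of transcripts. The members, without a Ptprc UMI by rule, are cells that such a sort should remove, and in library 1 tumour cells made up 2977 of the 5371 cells above the depth and mitochondrial thresholds, which goes against the sort. The counts were read as 4 libraries, and no source used here links a library to a sample. The comparisons below are therefore between cells and between libraries of unknown treatment, with no test, and the intervals given cover counting error only.

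A dividing cell passes from a gap phase (G1) through DNA replication (S) and a second gap phase (G2) into mitosis (M). Cyclins D and E with their kinases inactivate the retinoblastoma protein and free E2F factors, which switch on replication genes. The DREAM and MuvB complexes with FOXM1 and B-MYB control a later wave of G2 and M genes, many of them through CHR and CCAAT elements. Top2a (chr11:98992943-99024189, minus strand) and Mki67 (chr7:135689784-135716361, minus strand, both GRCm38, GENCODE vM21) encode TOP2A and Ki-67. TOP2A untangles replicated chromosomes, and the Ki-67 protein coats chromosomes in mitosis. Both are low in resting cells and serve as routine markers of proliferation in carcinoma.

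The members came almost wholly from a single library. Library 1 held 426 of them and library 2 held 20, while libraries 3 and 4 held none. The keratin gate decided this, since 3532 of 5371 cells above the depth and mitochondrial thresholds passed it in library 1, 135 of 3194 in library 2, 0 of 2444 in library 3 and 0 of 5496 in library 4. A floor of 3 counts puts the limit that these 0 counts allow at 0.123% of such cells in library 3 and 0.0546% in library 4, and the exact Clopper-Pearson upper limits were 0.151% and 0.0671%. The highest keratin share of a cell was 0.0316% in library 3 and 0.0341% in library 4. Libraries 1 to 4 held 108646352, 81369540, 69255999 and 96493208 UMIs in all, with medians of 11094, 2525, 2640 and 6985 UMIs per barcode, so library 1 was also the deepest per barcode, and the part of this depth in the count of members was not tested. Libraries 1 to 4 shared 101 barcode sequences, and 3 members carried such a sequence, none of them with a tumour cell as its partner.

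Among tumour cells, 14.3% were members in library 1 (95% interval 13.1 to 15.6%, n = 2977) and 19.8% in library 2 (12.5 to 28.9%, n = 101). The tumour cells of library 2 were deeper, however, with members at a median of 56670 UMIs against 31577 in library 1. When every tumour cell was thinned to 5000 UMIs and 2 UMIs of Top2a plus Mki67 were asked for, the shares were 13.3% (12.1 to 14.6%) and 6.93% (2.83 to 13.8%). The intervals of the libraries overlapped in both versions, which differed in depth and in the threshold, so no order of the libraries is read. The summed level of the mitotic lists described below was 4740 CPM (UMIs of the list in every 1000000 UMIs) over all tumour cells of library 1 and 4336 CPM in library 2.

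A threshold on a number of UMIs is passed more easily by deeper cells, so a higher depth of members is partly set by the gate. The median was 32088 UMIs and 5518 genes per member, against 18324 UMIs and 4110 genes per other tumour cell, and the mitochondrial share was 1.66% against 1.86%. The Top2a plus Mki67 sum ran from 5 to 165 UMIs with a median of 18.5. Both genes were seen in 400 members, while 10 lacked Top2a and 36 lacked Mki67. Just inside the threshold stood 41 cells with 5 UMIs, and just outside it 60 cells with 4. The mitotic gene Ube2c was at 59.0 CPM in the former and 70.9 CPM in the latter, and the secreted gene Lcn2 at 699 and 1092 CPM.

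The label was checked on genes that the gates did not use. Epcam, an epithelial adhesion molecule, was at 920 CPM in members and 940 CPM in other tumour cells, against 11.2 CPM in cycling Ptprc-positive cells and 2.85 CPM in cycling collagen-positive cells of all libraries. In library 1, the source of most members, it was at 935 CPM in members, 87.0 CPM in 165 cycling Ptprc-positive cells and 125 CPM in 11 cycling collagen-positive cells. Only 7 members lacked both Epcam and the tight-junction gene Cldn4. Krt8 and Krt18, which chose the cells, were at 2396 and 3526 CPM in members and at 2427 and 3567 CPM in other tumour cells. Krt5, a keratin of stratified skin, reached 3 UMIs in 1 member. The epithelial side of the label was thus seen in genes outside the gates.

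The plot of cycle transcripts places each tumour cell by how many UMIs of the cycle lists it held and by how many of those were mitotic. The 5 mitotic lists (106 genes) and the pair of replication lists (47 genes) were summed, with Top2a and Mki67 in neither. At 5000 UMIs per cell, members held a median of 78 cycle UMIs (quartiles 59 and 98) and other tumour cells 15 (12 and 20.2). The separation was not complete. Of the other tumour cells, 142 (5.40%) reached the 10th percentile of the members, 42.5 UMIs, and 18 reached the members' median.

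**Figure D1:**
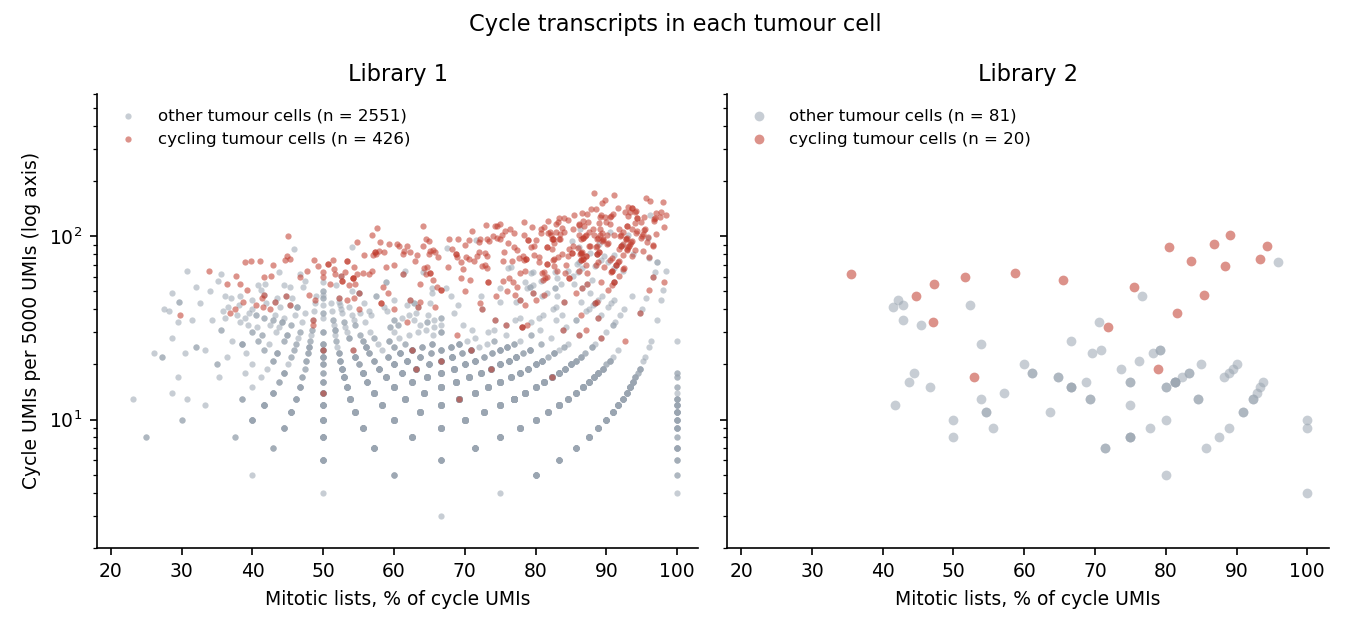
Each point is a tumour cell thinned to 5000 UMIs, in library 1 (left) and library 2 (right), with the share of its cycle UMIs from the mitotic lists on the x axis and its cycle UMIs on a log y axis. Members (red) lie mostly above the other tumour cells (grey), at a median of 78 against 15 UMIs, and spread from mitotic shares of 29.7% to 98.5%.

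Cycling and other tumour cells were then compared gene by gene, as a description, because the gates used this contrast. Counts were summed over cells and scaled to CPM, and the ratio is the log2 of (CPM + 10) in members over (CPM + 10) in other tumour cells, which understates the change of genes with low levels. Of 5877 genes at 20 CPM or more on either side, 213 were over 2-fold higher in members (3.62%) and 17 over 2-fold lower (0.289%). The median ratio of all these genes was 0.04. The sign was the same in libraries 1 and 2 for 212 of the 213 (not Olfr1372-ps1) and for 16 of the 17 (not Fxyd3), beside 70.6% of all genes compared. Ratios were often smaller in library 2. Among genes named below, the ratio there was 2.14 for Nusap1, 2.19 for Aurkb, 2.11 for Pbk, 2.09 for Smc2, 1.72 for Asf1b, 1.52 for Shcbp1 and 1.07 for H2afx, each over 1.5-fold under the value of all members. It was under 2-fold for Ulbp1 (0.92), Ezh2 (0.91), Tubb4b (0.91), E2f8 (0.86), Psat1 (0.71), Cdkn2d (0.62) and Mthfd2 (0.10). Library 2 rests on 20 members, and only library 1 had 50 cells on both sides.

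The highest ratios belonged to Ube2c (4.07), the conjugating enzyme of the anaphase-promoting complex, and to the histone gene Hist1h2ap (4.01), beside the chosen genes Top2a (3.98) and Mki67 (3.60). Ube2c was at 520 CPM (exact Poisson 95% interval 509 to 532) in members and 21.7 CPM (20.4 to 23.0) in others. In library 1 it was at 531 against 22.2 CPM and in library 2 at 396 against 11.3 CPM. Cenpf, a kinetochore protein, followed at 343 against 16.6 CPM (ratio 3.73). Prc1, which bundles the central spindle, was at 200 against 9.42 CPM, Birc5, the survivin subunit of the chromosomal passenger complex, at 391 against 28.7 CPM, and Nusap1, a spindle protein, at 104 against 3.02 CPM. Pclaf, the PCNA clamp-associated factor, stood at 217 against 12.6 CPM and had the highest ratio of the genes in none of the lists.

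Some of the mitotic lists were higher almost throughout. All 11 of the mitotic cyclins, CDK1 and activators that passed the level filter were over 2-fold higher, as were all 20 kinetochore and centromere genes. The count was 29 of 30 for spindle, motors and cytokinesis, with the microtubule polymerase Ckap5 the exception at 54.8 against 23.0 CPM (ratio 0.97). Over all genes compared it was 3.62%, but the gates chose cells by a pair of mitotic genes. Nothing is therefore read from the excess, here or in the cycle lists below. Cdk1, the mitotic kinase, was at 278 against 30.8 CPM. Its cyclins Ccnb1 and Ccna2 were at 94.9 against 4.99 CPM and at 145 against 6.69 CPM, with ratios of 2.83 and 3.25 in library 1 and 2.54 and 2.69 in library 2. Aurkb, the kinase that corrects chromosome attachment, was at 71.8 against 1.82 CPM.

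Not every part of the mitotic machinery differed. In the spindle checkpoint and APC/C list, 10 of 15 genes were over 2-fold higher. Ube2c, Cdc20 (158 against 17.7 CPM), the APC/C activator, and Pttg1 (244 against 43.3 CPM), the gene of securin, were among them. Core APC/C subunits stayed near the background, with Anapc13 at 78.4 against 72.8 CPM, Cdc27 at 30.9 against 25.6 CPM and Anapc1 at 31.4 against 23.2 CPM. The condensin and cohesin list behaved likewise, with 13 of 20 higher. The condensin subunits Smc2 (205 against 19.1 CPM) and Smc4 (430 against 75.8 CPM) and the chromatin protein Hmgb2 (1326 against 185 CPM) led it. The cohesin subunits Stag1 and Stag2 had ratios of 0.28 and 0.10.

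Replication genes were also higher, by less. In the licensing list, 8 of 13 genes were over 2-fold higher, and in the list of fork, dNTP and maintenance methylation genes 15 of 27. The share over all genes compared was 3.62%, and the gates chose dividing cells, so nothing is read from these counts. Dbf4, the activator of the CDC7 kinase, was at 116 against 21.1 CPM and geminin (Gmnn), which blocks re-licensing, at 105 against 23.9 CPM. Mcm5 and Mcm6, subunits of the replicative helicase, were at 107 against 30.1 CPM and 135 against 59.1 CPM. Rrm2, the regulated subunit of ribonucleotide reductase, was at 94.0 against 8.39 CPM, and thymidine kinase Tk1 at 152 against 22.3 CPM. Pcna, the sliding clamp, fell just short of 2-fold at 149 against 70.7 CPM (ratio 0.98). Of 8 recombination and checkpoint genes, 7 were higher, led by Clspn (claspin, a CHK1 adaptor) at 40.4 against 3.65 CPM.

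Histone genes did not move together. Only 7 of the 70 replication-dependent histone genes passed the level filter, and 4 were over 2-fold higher. Most such transcripts lack the poly(A) tail that the assay captures, and their copies are near-identical, so that the split of reads between copies is uncertain. Hist1h2ap was at 658 against 31.5 CPM and the linker histone Hist1h1b at 135 against 6.06 CPM. In library 2, Hist1h1b was at 47.3 against 1.46 CPM and Hist1h2ap at 127 against 20.05 CPM. Hist1h2bc (88.8 against 139 CPM, ratio −0.60) and Hist1h1c (60.5 against 81.0 CPM, ratio −0.37) were lower in members. Of 10 histone variants and chaperones 5 were higher. H2afz was at 2148 against 627 CPM and H2afx at 267 against 49.4 CPM, while the replacement histone H3f3b was at 5297 against 4938 CPM and H3f3a at 840 against 806 CPM. The histone chaperone Asf1b was at 61.9 against 4.38 CPM and its paralogue Asf1a at 75.3 against 62.7 CPM. In the tubulin list 6 of 9 were higher, with the microtubule destabiliser Stmn1 at 542 against 114 CPM and Tubb5 at 2317 against 1087 CPM.

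Genes that control entry into S phase were mostly within 2-fold where their level allowed a comparison. Of 8 such genes of the G1/S list, only E2f8, a late repressor of E2F targets, was over 2-fold higher (27.9 against 6.31 CPM). Cyclin D1 (Ccnd1) was at 1365 CPM (1347 to 1384) in members and 1018 CPM (1009 to 1027) in others, a ratio of 0.42. It was at 1362 against 1025 CPM in library 1 and at 1403 against 893 CPM in library 2. Cdk4 was at 439 against 360 CPM. The E cyclins were below the level filter, with Ccne1 at 9.24 against 1.76 CPM and Ccne2 at 5.68 against 0.707 CPM. In library 2, Ccne1 was at 2.54 CPM, on 3 UMIs, against 2.92 CPM, and its log2 ratio went from 0.71 to −0.04 without library 1. Among inhibitors, Cdkn3, a phosphatase of CDKs, and Cdkn2d, the p19INK4D gene, were at 83.7 against 11.3 CPM and at 89.0 against 15.4 CPM, whereas Cdkn2c (p18INK4C) was at 114 against 165 CPM. Without library 1 the ratio of Cdkn2d went from 1.96 to 0.62, under 2-fold, with 38.9 against 21.9 CPM in library 2. Cdkn1a (p21) and Cdkn1b (p27) had ratios of 0.12 and 0.25.

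**Figure D2:**
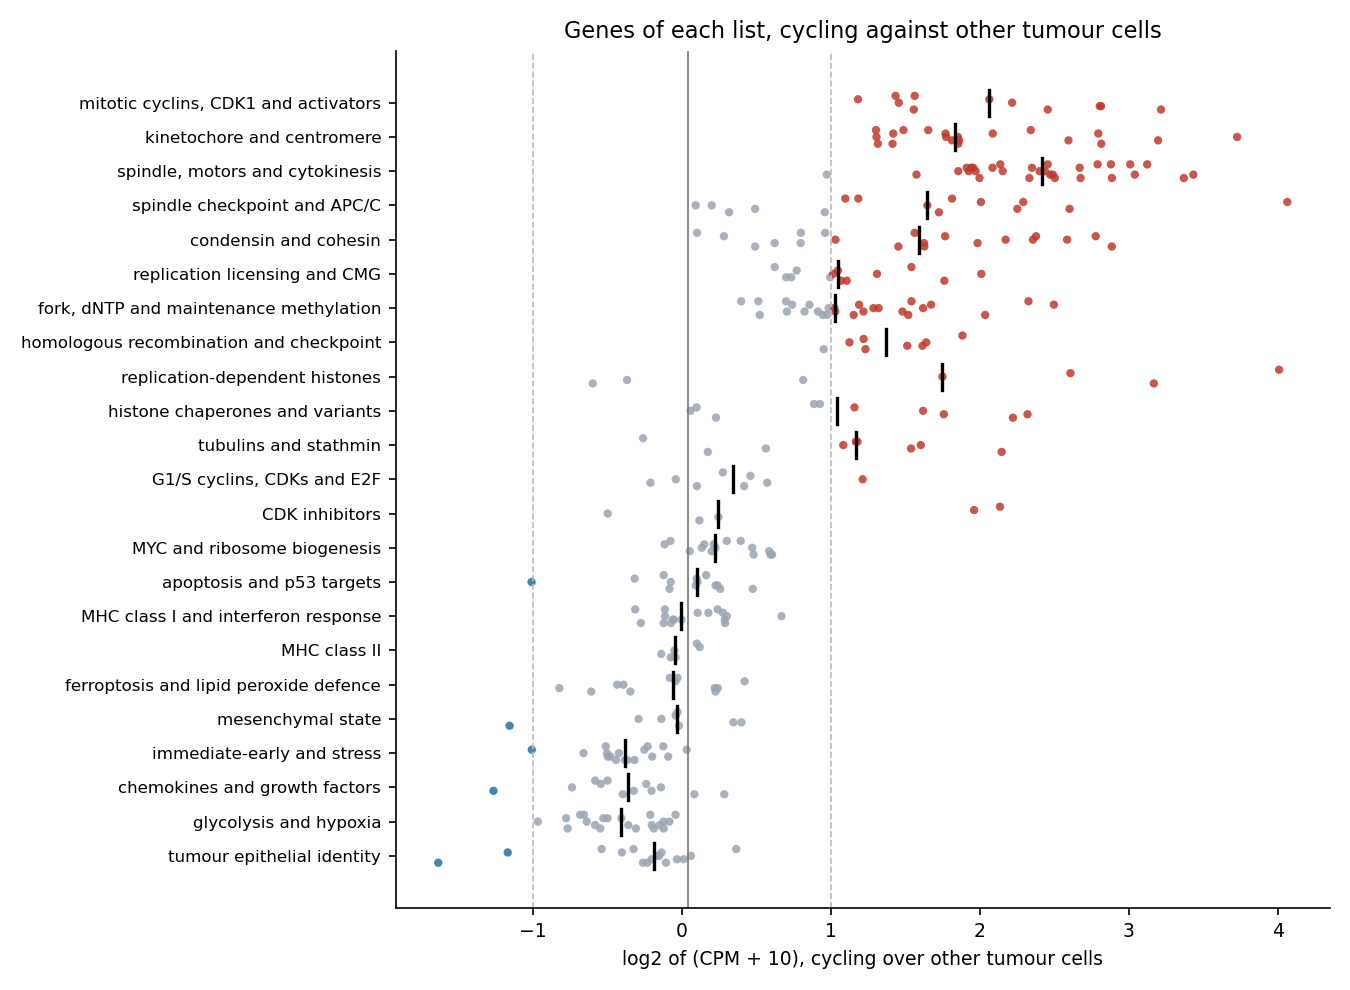
Each point is a gene that passed the level filter, placed by its list (rows) and its log2 ratio of (CPM + 10) in cycling over other tumour cells (x axis); red and blue mark ratios beyond 2-fold (dashed lines), black bars the list medians and the grey line the median of all genes compared, 0.04. The mitotic and replication lists lie to the right, with medians from 1.03 to 2.42, and the glycolysis and hypoxia list lies at −0.40.

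The promoters of these lists were read for 3 elements, as a view of sequence that the gates did not use. The elements were the CHR (TTTGAA), the CCAAT box (CCAAT) and the E2F site (TTTCCCGC or TTTGGCGC), each on either strand in the 250 bases before and 50 after a RefSeq start in GRCm38.p6, and no word contains another. RefSeq held 102 promoters for 91 of the 106 mitotic genes, 47 for 38 of the 47 replication genes and 5964 for 4676 of the genes compared. The CHR stood in 57.8% of mitotic promoters, 19.1% of replication promoters, 12.1% of promoters of all genes compared and 17.9% of all 32851 promoters. The CCAAT box stood in 69.6% of mitotic, 55.3% of replication, 37.4% of compared and 37.4% of all promoters. CHR and CCAAT together stood in 46.1%, 8.51%, 4.93% and 6.95%. The E2F words stood in 8.82%, 27.7%, 3.504% and 1.56%. A match is a string of letters and not a bound site.

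Of 12 promoters read one by one, 6 are shown, chosen after their matches were seen, so that both promoters with the elements and promoters without them appear. In the order described next, Ube2c, Ccnb2 (cyclin B2) and Ccnb1 (cyclin B1) were highest in members with the highest mitotic share of cycle UMIs. Mcm5, Pcna and Cdc6, a licensing factor, were highest in members with the lowest share. They run 5′ to 3′ in the direction of the gene, with capitals for every CHR, CCAAT and E2F match on either strand. They lie at chr2:164769679-164769978 (plus strand), chr9:70421505-70421804 (minus), chr13:100786437-100786736 (minus), chr8:75109259-75109558 (plus), chr2:132253131-132253430 (minus) and chr11:98907901-98908200 (plus). The Cdc6 window is set by a RefSeq start inside the gene, which GENCODE vM21 begins at chr11:98907801. That window therefore holds no sequence before the GENCODE gene start. Ube2c held 1 CHR, at 29 bases before its start, and 6 CCAAT matches, and Ccnb2 held 2 CHR and 3 CCAAT matches, whereas Ccnb1 held 2 CCAAT matches and no CHR. Mcm5 held 1 E2F and 3 CCAAT matches and Cdc6 held 1 E2F match, whereas Pcna held 1 CCAAT match and no E2F word. Among those not shown, Birc5, a mitotic gene, and Ccne1 held none of the 3 elements.
Ube2c: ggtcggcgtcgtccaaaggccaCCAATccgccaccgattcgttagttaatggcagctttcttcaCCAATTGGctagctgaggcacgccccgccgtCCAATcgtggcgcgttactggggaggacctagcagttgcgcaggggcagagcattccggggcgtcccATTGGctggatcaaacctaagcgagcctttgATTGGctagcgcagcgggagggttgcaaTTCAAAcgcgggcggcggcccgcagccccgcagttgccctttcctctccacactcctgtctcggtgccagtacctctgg
Ccnb2: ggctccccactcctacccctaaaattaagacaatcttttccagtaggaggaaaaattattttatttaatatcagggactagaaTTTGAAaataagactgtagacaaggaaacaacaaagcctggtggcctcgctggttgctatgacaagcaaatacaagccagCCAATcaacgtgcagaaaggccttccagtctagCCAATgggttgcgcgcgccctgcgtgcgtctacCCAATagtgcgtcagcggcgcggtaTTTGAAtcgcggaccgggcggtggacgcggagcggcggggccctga
Ccnb1: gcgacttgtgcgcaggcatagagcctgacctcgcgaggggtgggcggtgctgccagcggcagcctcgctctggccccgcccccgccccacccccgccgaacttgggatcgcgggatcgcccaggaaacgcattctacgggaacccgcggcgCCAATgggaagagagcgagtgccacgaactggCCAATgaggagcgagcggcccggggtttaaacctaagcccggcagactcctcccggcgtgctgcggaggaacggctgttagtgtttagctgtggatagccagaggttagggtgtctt
Mcm5: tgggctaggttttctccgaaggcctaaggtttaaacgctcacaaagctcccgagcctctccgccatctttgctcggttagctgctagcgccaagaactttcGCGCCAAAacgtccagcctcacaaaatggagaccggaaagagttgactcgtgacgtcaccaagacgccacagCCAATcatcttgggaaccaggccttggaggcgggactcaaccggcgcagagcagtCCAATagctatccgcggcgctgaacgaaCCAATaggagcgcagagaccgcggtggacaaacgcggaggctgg
Pcna: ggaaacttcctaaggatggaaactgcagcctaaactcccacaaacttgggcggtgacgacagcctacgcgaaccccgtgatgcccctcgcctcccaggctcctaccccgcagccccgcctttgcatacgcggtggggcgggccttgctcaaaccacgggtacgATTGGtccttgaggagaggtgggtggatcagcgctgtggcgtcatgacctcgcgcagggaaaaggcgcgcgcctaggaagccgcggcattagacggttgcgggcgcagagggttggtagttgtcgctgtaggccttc
Cdc6: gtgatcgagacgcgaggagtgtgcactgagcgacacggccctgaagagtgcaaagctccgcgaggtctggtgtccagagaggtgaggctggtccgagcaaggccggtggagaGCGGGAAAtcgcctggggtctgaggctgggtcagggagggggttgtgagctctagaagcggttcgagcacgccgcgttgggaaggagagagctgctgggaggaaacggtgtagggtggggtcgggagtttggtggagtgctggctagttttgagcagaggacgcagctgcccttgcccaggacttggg

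The members themselves ranged widely in the balance of replication and mitotic transcripts, which does not measure replication or mitosis itself. The mitotic share of cycle UMIs had a median of 80.8% (quartiles 64.3 and 89.0%), from 29.7% to 98.5%. Members were put in order of this share and divided into 3 equal parts of 149, 149 and 148 cells at 71.0% and 86.7%. The parts are ranges and not types, since 196 cells lay within 5 points of a boundary. Depth was alike, with medians of 33178, 31589 and 32058 UMIs, and the parts held 141, 142 and 143 cells of library 1. Levels of the lists that made the order follow from it and are given only to show its size. From the lowest to the highest part, Ube2c went from 78.6 to 418 to 1088 CPM, Cdc20 from 21.2 to 145 to 315 CPM and Ccnb1 from 14.4 to 85.9 to 188 CPM. Pcna went the other way, from 255 to 130 to 55.9 CPM, as did Mcm5 from 190 to 82.0 to 45.3 CPM and Cdc6 from 41.5 to 7.69 to 1.63 CPM.

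Genes in neither set of lists were then read along the order, in the same cells. Cyclin E1 (Ccne1) went from 20.6 CPM (16.8 to 24.9) to 5.72 CPM (3.83 to 8.21) to 1.02 CPM (0.330 to 2.37), and E2f1 from 61.0 to 20.7 to 7.11 CPM. Cyclin D1 (Ccnd1) was at 1323, 1280 and 1497 CPM. Of the 5 replication-dependent histone genes followed here, 4 were highest in the middle and Hist1h2bc was not, at 54.9, 92.6 and 120 CPM. Hist1h2ap was at 587 CPM (566 to 608) in the lowest part, 789 CPM (764 to 813) in the middle and 598 CPM (577 to 620) in the highest, and Hist1h1b at 136, 173 and 93.5 CPM. Clspn went from 78.4 to 29.0 to 12.4 CPM. Cdkn3 went from 17.9 to 83.6 to 153 CPM, Cdkn2d from 39.4 to 96.2 to 134 CPM, H2afx from 124 to 270 to 414 CPM and Tubb4b, a tubulin, from 349 to 668 to 1035 CPM. Top2a, of the gate, was at 363, 631 and 708 CPM and Mki67 at 104, 248 and 307 CPM. Epcam went from 669 to 931 to 1171 CPM, whereas Gpx4 was at 579, 514 and 481 CPM.

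**Figure D3:**
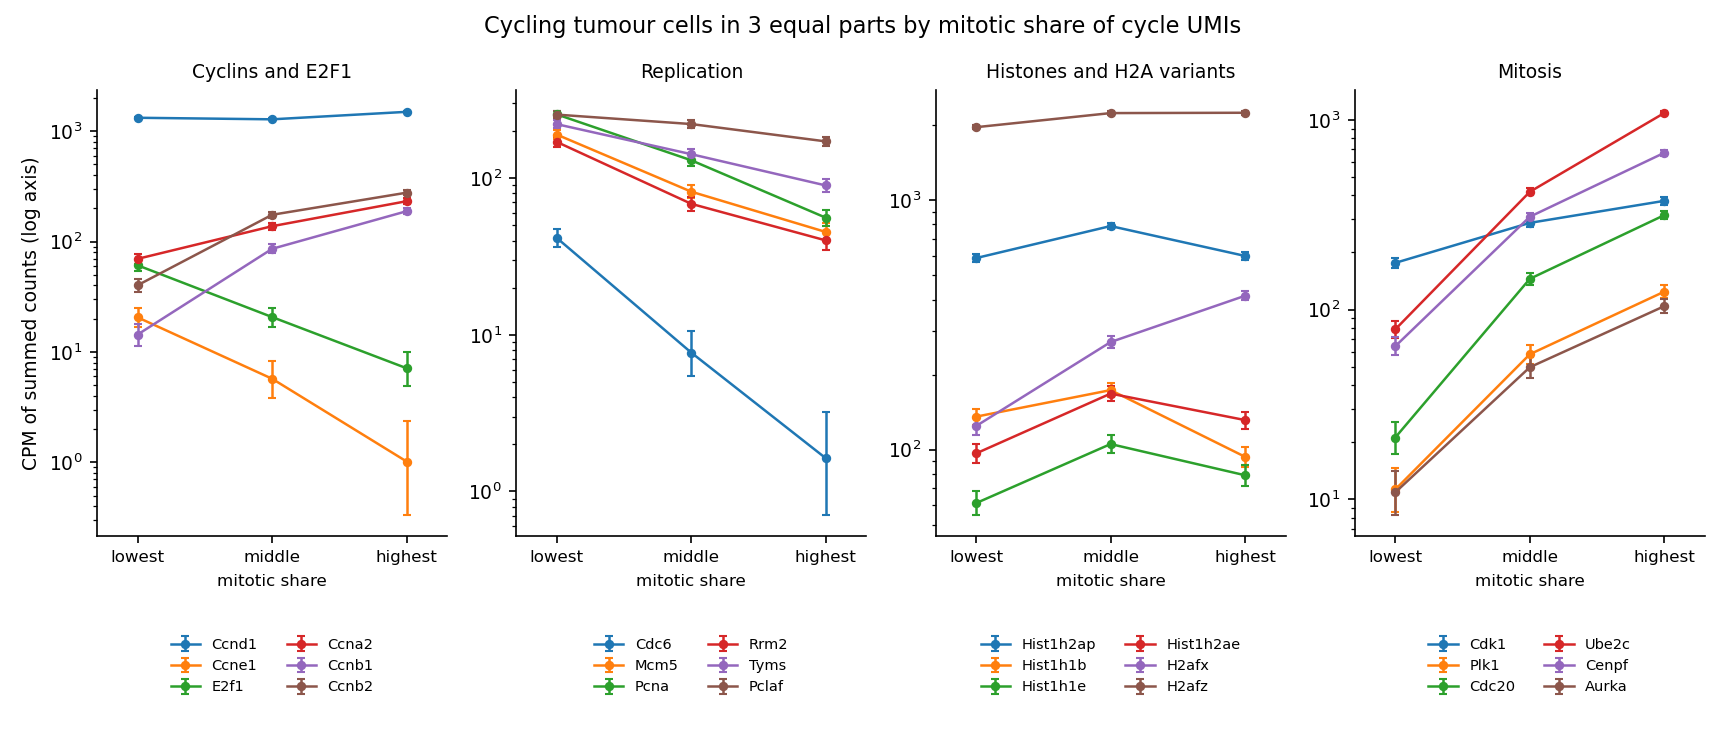
Levels of 24 genes (CPM of summed counts, log axes) in 3 equal parts of the 446 members, from the lowest to the highest mitotic share of cycle UMIs; bars are exact Poisson 95% intervals. Ccne1 and Cdc6 decline to 1.02 and 1.63 CPM, Hist1h2ap is highest in the middle at 789 CPM, and Ube2c climbs to 1088 CPM.

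Of the 213 genes, 80 belonged neither to the gates nor to any list of the cell cycle, counting the mitotic and replication lists and those of histones, chaperones, tubulins, recombination, the G1/S switch and CDK inhibitors. After Pclaf, the highest were the mitotic kinase Pbk (78.1 against 2.98 CPM) and Shcbp1 (58.6 against 2.75 CPM), a partner of the centralspindlin complex. Others were chosen here after their values were seen. The kinase Melk was at 41.5 against 2.45 CPM. Psat1 of serine synthesis was at 45.3 against 12.7 CPM and Mthfd2 of mitochondrial folate metabolism at 36.4 against 12.1 CPM. In library 2 the latter was at 24.5 against 22.2 CPM. Ulbp1, a ligand of the NKG2D receptor of natural killer and T cells, was at 23.2 against 5.85 CPM, and in library 2 at 22.8 against 7.29 CPM. Ezh2, the histone methyltransferase of Polycomb repressive complex 2, was at 114 against 42.1 CPM.

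The 17 lower genes included none of the cycle lists and 2 of the tumour epithelial list (Lcn2 and Spp1). Lcn2, an iron-siderophore binder secreted by mammary carcinoma cells, was at 529 CPM (517 to 540) in members and 1661 CPM (1650 to 1673) in others, a ratio of −1.63. It was at 569 against 1731 CPM in library 1 and at 58.3 against 410 CPM in library 2. Spp1 (osteopontin) was at 2271 against 5113 CPM and Fn1 (fibronectin) at 777 against 1742 CPM. In library 2 the differences were smaller, with Spp1 at 966 against 1465 CPM and Fn1 at 1113 against 1520 CPM. Tslp, an epithelial cytokine, was at 114 against 288 CPM, and in library 2 at 16.9 against 23.3 CPM. Ly6d, a surface antigen, stood at 3.10 against 27.0 CPM, but library 2 showed no such difference, with no UMI in members and 0.365 CPM in others (ratio −0.05). Abcc3, a drug exporter, was at 21.9 against 69.1 CPM and the peptidase Ace at 29.3 against 82.5 CPM. Without library 1 the ratio of Ace went from −1.24 to −0.44, with 17.8 against 27.7 CPM in library 2. Fxyd3, a regulator of the sodium pump, was at 119 against 291 CPM and was the gene whose sign turned in library 2, at 189 against 167 CPM.

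The other lower genes were Cp (ceruloplasmin), Mgp (matrix Gla protein), Pdgfrl, Thbs1 (thrombospondin), Tanc2, Nupr1 and Gadd45a, both stress-induced, the epithelial factor Klf4, and Mxd4, a MAX partner that opposes MYC. Their ratios lay between −1.16 and −1.01. In library 2 they lay between −1.04 and −0.43, and Cp alone was over 2-fold lower there. Mxd4 was at 11.2 against 35.9 CPM, Nupr1 at 298 against 654 CPM and Klf4 at 270 against 552 CPM. In library 2, Mxd4 was at 16.9 against 26.2 CPM on 20 UMIs in members.

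Other programmes of the tumour cell are given as counts, to be read beside the 3.62% higher and 0.289% lower of all genes compared. In the list of 20 tumour epithelial genes, 16 passed the level filter, none was higher and Lcn2 and Spp1 were lower. All 21 glycolysis and hypoxia genes passed it, with none beyond 2-fold and a median ratio of −0.40. Ndrg1 (213 against 425 CPM) and Bnip3 (69.1 against 125 CPM), both hypoxia-induced, had the lowest ratios, and Gapdh was at 2761 against 3005 CPM. Of 17 immediate-early and stress genes, Klf4 alone was beyond 2-fold, with a median of −0.38 and Jun at 2032 against 2532 CPM. Of 15 MYC and ribosome biogenesis genes none was, with a median of 0.23, Ncl (nucleolin) at 1083 against 772 CPM and Myc itself at 80.2 against 84.97 CPM. Of 8 mesenchymal genes, Fn1 alone was lower, and Vim (vimentin) was at 4875 against 3828 CPM. Of 12 chemokines and growth factors, Tslp alone was lower, and Cxcl1, a neutrophil attractant, was at 614 against 870 CPM. None of 17 class I and interferon genes or of 6 class II genes was beyond 2-fold, with medians of 0.00 and −0.05. Of 13 apoptosis and p53 target genes, Gadd45a alone was beyond 2-fold and was lower.

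Genes of lipid peroxide defence were read because TIOs carry a GPX4 inhibitor. None of the 12 that passed the level filter was beyond 2-fold, and at the shares of all genes compared (3.62% higher, 0.289% lower) a list of this size need not hold any. Gpx4 was at 526 CPM (514 to 537) in members and 536 CPM (530 to 542) in others, and at 499 against 512 CPM in library 2. Acsl4, which loads polyunsaturated fatty acids into lipids, was at 104 against 135 CPM. Slc7a11, the cystine importer, was below the filter at 3.37 against 7.43 CPM. Fth1, the ferritin heavy chain that stores iron, was at 8535 CPM in members and 15083 CPM in others, a ratio of −0.82. The ratio was −0.87 in library 1 and −0.20 in library 2, where the levels were 10755 and 12373 CPM.

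The plot by marker UMIs shows how these levels moved over all tumour cells, with no threshold. From 1457 cells without a Top2a or Mki67 UMI to 65 members with 50 or more, the mitotic sum rose at each step from 2183 to 17634 CPM. The replication sum rose from 1016 to 3456 CPM at 5 to 9 UMIs and stood at 2900 CPM at the top. Fth1 went from 16348 to 9270 CPM at 5 to 9 UMIs and then to 8326 CPM. Lcn2 was at 1844 CPM without a marker UMI, 1538 CPM at 1 to 2 UMIs, 1164 CPM at 3 to 4 UMIs and 511 CPM at 5 to 9 UMIs, and between 523 and 550 CPM above. Gpx4 stayed between 490 and 556 CPM. Median depth rose from 16505 to 45831 UMIs over the same steps, and its part in these levels was not tested.

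**Figure D4:**
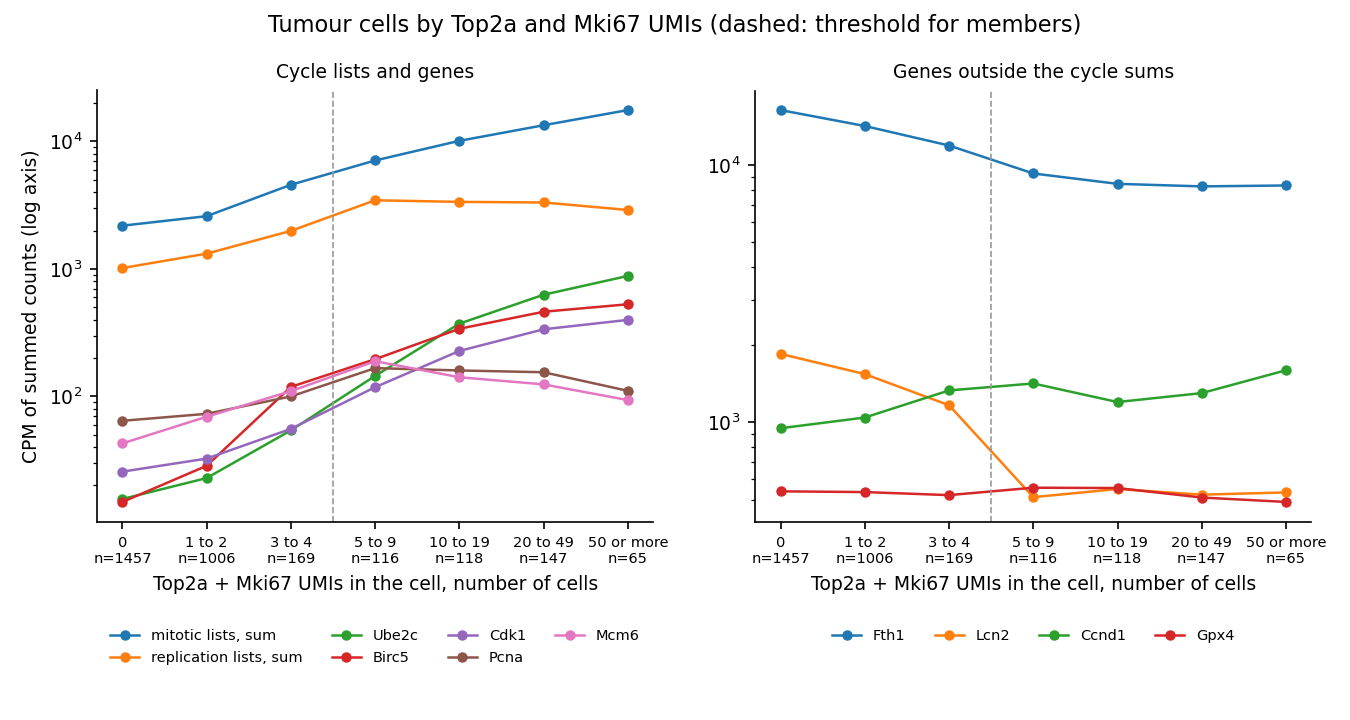
Levels (CPM of summed counts, log axes) in tumour cells grouped by their Top2a plus Mki67 UMIs, with the number of cells under each group and the members to the right of the dashed line. The mitotic sum rises from 2183 to 17634 CPM, the replication sum is highest at 5 to 9 UMIs, and Fth1 and Lcn2 are lowest among members while Gpx4 stays between 490 and 556 CPM.

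The tumours also held other dividing cells, gated in the same way on Top2a plus Mki67. There were 819 cycling cells with Ptprc and 447 without Ptprc but with collagens at 0.5% of UMIs or more. Both groups came from all 4 libraries, and they are gates and not distinct cell types. Fibroblast markers summed to 11671 CPM in the former and 22354 CPM in the latter, and monocyte, macrophage and dendritic markers to 2625 and 533 CPM. In Ptprc-positive cells under 5 UMIs of Top2a plus Mki67, fibroblast markers summed to 9231 CPM and monocyte, macrophage and dendritic markers to 18512 CPM. Genes of division were read side by side in the 3 populations. Ccna2 was at 145, 147 and 140 CPM in tumour, Ptprc-positive and collagen-positive cells, Ccnb1 at 94.9, 111 and 97.1 CPM, Mcm6 at 135, 97.9 and 91.1 CPM, and the mitotic share of summed cycle UMIs was 78.9, 76.4 and 76.0%, beside 67.6, 70.0 and 71.8% in the corresponding cells under 5 UMIs of Top2a plus Mki67. No direction was common to all of them. Over all libraries, Top2a was at 565, 371 and 339 CPM and Hmgb2 at 1326, 767 and 524 CPM. The tumour cells were lowest for Mki67 at 218, 308 and 273 CPM and Pclaf at 217, 345 and 324 CPM. The same held for Rrm2 at 94.0, 180 and 146 CPM and Pcna at 149, 206 and 201 CPM. In library 2, tumour cells were not highest, with Top2a at 299, 413 and 377 CPM and Hmgb2 at 639, 874 and 510 CPM. In library 1, Top2a was at 588, 475 and 389 CPM and Hmgb2 at 1384, 1347 and 640 CPM. The 11 collagen-positive cells there were not above the tumour cells for Mki67 (222 against 223 CPM), Pclaf (164 against 226 CPM), Rrm2 or Pcna. The median depth was 32088, 43712 and 45780 UMIs.

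The cyclins of G1 differed between them. Cyclin D1 (Ccnd1) was at 1365 CPM in cycling tumour cells, 259 CPM in Ptprc-positive and 104 CPM in collagen-positive cells. The libraries did not overlap, at 1362 and 1403 CPM in tumour cells, 173 to 368 CPM in Ptprc-positive and 78.1 to 158 CPM in collagen-positive cells. Cyclins D2 (Ccnd2) and D3 (Ccnd3) were the reverse, at 25.9 and 46.3 CPM in tumour cells, 94.7 and 91.8 CPM in Ptprc-positive and 103.2 and 94.9 CPM in collagen-positive cells. Ccnd2 was at 24.1 and 48.2 CPM in the tumour cells of libraries 1 and 2, under all libraries of the other populations (78.2 to 117 CPM). Ccnd3 was at 46.4 and 44.8 CPM and at 53.4 to 113 CPM. The other tumour cells were close to the members, at 31.6 CPM for Ccnd2 and 47.8 CPM for Ccnd3. Their Ccnd1, at 1018 CPM, was also above every library of the other populations. These levels are thus not particular to cycling tumour cells.

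Cyclin E1 (Ccne1) was at 9.24 CPM in cycling tumour cells, 31.4 CPM in Ptprc-positive and 25.9 CPM in collagen-positive cells. Cyclin E2 (Ccne2) was at 5.68, 19.1 and 17.4 CPM. In the 11 collagen-positive cells of library 1 both were at 3.22 CPM on 1 UMI each, so the order did not hold there. The inhibitors differed in kind as well. Cdkn2a, which encodes p16INK4A and p19ARF, gave 1 UMI in all 446 members (0.0660 CPM, 0.00167 to 0.368), against 361 UMIs (10.1 CPM) in Ptprc-positive and 109 UMIs (5.27 CPM) in collagen-positive cells. Other tumour cells held 8 UMIs of it (0.153 CPM). Cdkn1a was at 53.02, 193 and 127 CPM, with 22.5 CPM in the collagen-positive cells of library 1, and Cdkn2c at 114, 38.6 and 39.0 CPM. For Cdkn2c the libraries did not overlap, at 96.4 and 115 CPM in tumour cells and 27.3 to 61.1 CPM in the others. Cdk6 was at 66.2, 50.2 and 17.1 CPM. The other tumour cells were at 165 CPM for Cdkn2c and 61.0 CPM for Cdk6, so these levels are not particular to cycling tumour cells.

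**Figure D5:**
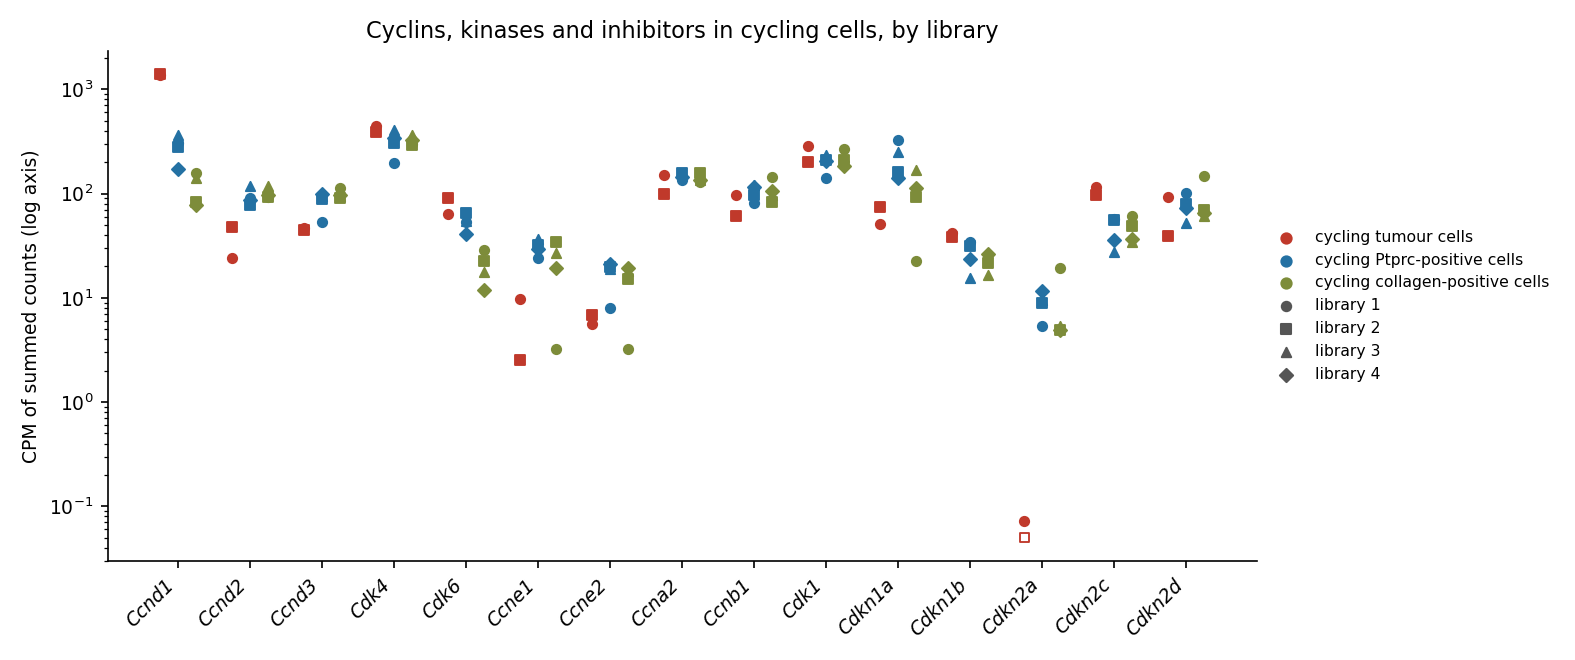
Levels of 15 cyclin, kinase and inhibitor genes (CPM of summed counts, log axis) in cycling tumour cells (red), Ptprc-positive cells (blue) and collagen-positive cells (green), with a marker for each library; the open marker for Cdkn2a has no UMI and is drawn at the foot of the axis. Ccnd1 in tumour cells (1362 and 1403 CPM) lies above every library of the other cells, while Ccna2, Ccnb1 and Cdk1 lie between 60.9 and 284 CPM in every library of all 3 populations.

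The members of libraries 1 and 2 differed in antigen presentation and also in cycle genes. The mitotic sum was 12515 CPM in members of library 1 and 8740 CPM in members of library 2, the replication sum 3303 and 2848 CPM, and the sum of replication-dependent histones 1472 and 529 CPM. Cd74, the invariant chain of MHC class II, was at 2217 CPM in members of library 1 and 60.0 CPM in members of library 2, and H2-Aa at 892 and 32.1 CPM. H2-K1, of MHC class I, was at 2533 and 706 CPM. The other tumour cells showed the same gap, with Cd74 at 2271 and 59.1 CPM and H2-K1 at 2692 and 909 CPM. Cd274 (PD-L1) was at 18.5 CPM in members of library 1 and at 4.23 CPM, on 5 UMIs, in library 2. Free RNA can add to such levels. In library 1, Cd74 was at 448 CPM in 119 collagen-positive cells and at 914 CPM in 153 neutrophil-like cells of median depth 1716 UMIs, against 17485 CPM in 1354 Ptprc-positive cells. Ciita, the class II transactivator, was at 11.4 CPM in members of library 1, 1.49 CPM in collagen-positive cells and 72.6 CPM in Ptprc-positive cells. Treatment, library and cell state cannot be told apart here.

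Markers of other cells were also summed in members and in other tumour cells. The 13 T and NK cell markers summed to 18.95 CPM against 19.1 CPM, with Klrb1c at 0, and the 6 B cell and plasma markers to 0.594 CPM against 0.382 CPM, with Ms4a1 and Mzb1 at 0. The 9 neutrophil markers summed to 413 against 406 CPM, led by Mmp9 at 144 CPM, with Ly6g at 0, and the 15 monocyte, macrophage and dendritic markers to 405 against 429 CPM, led by Apoe at 163 CPM. In library 2 the latter sum was 489 CPM in members and 273 CPM in other tumour cells. The 11 fibroblast markers summed to 199 against 170 CPM, led by the gated gene Col3a1 at 75.8 CPM. The fibroblast sum was 114 against 112 CPM in library 1 and 1198 against 1220 CPM in library 2. The 8 endothelial and pericyte markers summed to 22.3 against 18.7 CPM and the 5 erythroid markers to 4.09 against 7.11 CPM. Of the 10 keratinocyte markers, summed at 576 against 760 CPM, Sfn was highest at 260 CPM. Of the 77 genes of these lists, 14 passed the level filter, none of them T and NK, B cell, endothelial or erythroid markers, and none of the 14 was beyond 2-fold. For fibroblast markers, 53.4% of members and 32.1% of other tumour cells held 3 or more UMIs, and after thinning to 5000 UMIs the share with at least 1 UMI was 38.1% and 41.0%.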

How the data were processed

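The deposited matrix held UMI counts, which the authors made with Cell Ranger (3.0.2 in the design text, 2.1.1 in the submitters' processing notes and 6.1.2 in the header of the matrix) on mm10, from 10x 3′ libraries. All 55450 identifiers were found in GENCODE vM21. The matrix held 33064 barcodes, of which 32133 passed the stated filter of 300 genes and 15% mitochondrial UMIs, beside 15603 cells in the extraction protocol. It was treated as 1 pooled sample of 4 libraries, so no test was run. Counts were summed over cells with Python 3.11.15, numpy 2.4.6 and scipy 1.17.1, scaled to CPM and compared as log2 ratios with 10 CPM added, for genes at 20 CPM or more, with exact Clopper-Pearson or Poisson 95% intervals. The calculation of folds was first run on simulated counts with known folds, which checks the code and not these results. Doublets were not removed in the main values, and the highest 5% of Scrublet scores (scanpy 1.11.5) were removed in an alternative. Cells were thinned to 5000 UMIs where depth mattered. Genes were named by a rule: the genes of the gates, the 12 highest and 12 lowest ratios with 1 sign in every library of 50 or more cells on both sides, in each list the 2 to 6 most abundant genes and those at either end of the ratios, and Gpx4, Slc7a11, Acsl4, H2-K1, Cd274, Ccnd1, Ccne1, Ccna2, Ccnb1, Cdk1, Myc, Epcam and Vim. Any other gene named was chosen after its values were seen. The members and lists were chosen with earlier results of these data known. Of 108 symbols that occur more than once, the row with more UMIs was used. A withheld item is not reported here.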

Additional observations from a re-analysis of the deposited data

How the results depend on the processing

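The number of members was 20 without library 1 and 426 without library 2, beside 446. It was 559 with any Ptprc count allowed, 615 at 3 UMIs of Top2a plus Mki67 and 330 at 10 UMIs. The share of tumour cells that were members moved from 14.5% to 19.98% at 3 UMIs of Top2a plus Mki67, 10.7% at 10 UMIs, 11.97% without the deepest 5% of tumour cells and 13.1% at 2 UMIs in cells thinned to 5000 UMIs, and lay between 14.3% and 19.8% when a library was left out. The median mitotic share lay between 77.2% and 81.0%, beside 80.8%, when a library was left out. The 213 higher genes became 70 with 50 CPM added and 120 among genes at 50 CPM or more, since fewer genes can then pass, and between 172 and 218 when a library was left out. The 17 lower genes became 7 at 3 UMIs, 11 in thinned cells at 2 UMIs, 26 against tumour cells without Top2a and Mki67, 35 with 1 CPM added and 6 with 50 CPM added, and between 17 and 53 when a library was left out. Without library 1, 137 of the 213 and 3 of the 17 were still called, on 20 members, and Fxyd3 ranged from −1.32 to 0.17 when a library was left out. Against tumour cells matched on depth, 194 of the 213 and 10 of the 17 were called. A threshold of 0.02% of UMIs for Top2a plus Mki67, chosen after the data were seen, gave 458 members, with 207 and 13 called. All 7 cycle lists were over 2-fold higher under the 18 alternatives that recomputed them, which leave out both filters on low values. Of 79 genes and lists followed under the same 18, 62 kept a single sign. No paired analysis was possible because no library is linked to a sample.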
